A study of Mus musculus with 43 samples.

Results

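Sertoli cells are the somatic cells of the seminiferous tubule that enclose and feed the germ cells, and 10 genes that mark them were followed through the RNA and chromatin data of the P7 testis: Sox9, Wt1, Gata4, Gata1, Amh, Inha, Dhh, Clu, Fshr and Cldn11. They were chosen by name as markers of Sertoli cell identity, and all 10 were found by gene ID, with the version left out, among the 55401 genes of each RNA table. The mice were of the C57BL/6J background. Prmt1-dKO animals are Ddx4-CreERT2 Prmt1 lox/lox, in which the germ cell gene Ddx4 drives EGFP and a Cre that tamoxifen switches on, and tamoxifen was injected on consecutive days before collection at P7. WT animals are listed without a treatment, while the study's text describes tamoxifen doses before its RNA samples were taken and does not set WT apart. If WT animals received none, tamoxifen and genotype cannot be told apart in any comparison of dKO with WT. The arginine methyltransferase gene Prmt1 loses floxed exons where this Cre is active, in the germ line, so Sertoli cells are not the cells in which the deletion is driven. Bulk RNA-seq was made from whole testes of 3 WT and 3 dKO samples, although the labels name their cell type as spermatogonia. Smart-seq2 libraries were made from pools of GFP-positive cells sorted from 2 WT and 2 dKO samples, and the study's methods describe the animals used as sorting controls as heterozygous Ddx4-GFP-CreERT2-Prmt1 +/lox while the labels call them WT. The chromatin data are 33 CUT&Tag peak lists for 7 histone marks in WT tubule cells at P7 and P14, with H4R3me2s also in dKO at P7, prepared by digestion and straining meant to remove Sertoli cells. The P14 samples are titled spermatogonia in the labels but carry the cell type spermatocyte. The study's text calls its replicates biological, but the labels do not say which came from separate animals or pools, and p-values measure the spread between these samples, which may be technical in part.

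In the developing testis SOX9 and WT1 set and hold the Sertoli cell fate, and GATA4 and GATA1 are zinc-finger factors that bind the promoters of Sertoli cell genes. Immature Sertoli cells secrete anti-Müllerian hormone (AMH), which removes the Müllerian duct, the inhibin alpha subunit (INHA), which restrains follicle-stimulating hormone, and desert hedgehog (DHH), which signals to Leydig and peritubular cells. FSHR is the receptor through which follicle-stimulating hormone drives Sertoli cells before puberty. Claudin 11 (CLDN11) is a tight junction protein of the blood-testis barrier, and clusterin (CLU) is an abundant secreted chaperone.

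The genes lie on 9 chromosomes of the GRCm38 build (mm10), with Gata4 and Clu both on chromosome 14. Sox9 is at chr11:112782224-112787760 on the plus strand, Wt1 at chr2:105126529-105173616 (plus), Gata4 at chr14:63198922-63271692 (minus) and Gata1 at chrX:7959260-7978071 (minus). Amh is at chr10:80805243-80807648 (plus), Inha at chr1:75507077-75510366 (plus), Dhh at chr15:98891152-98898540 (minus) and Clu at chr14:65968483-65981547 (plus). Fshr is at chr17:88984952-89200675 (minus) and Cldn11 at chr3:31149920-31164324 (plus). Dhh overlaps Rhebl1 on the same strand, and its deposited counts are not whole in 8 of the 10 libraries, so reads were shared with another gene and its level is uncertain.

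Promoter sequences of 300 bases, from 250 before to 50 after the RefSeq start, were at hand for Gata1, Fshr, Dhh, Cldn11 and Inha, and 3 are shown because their genes stand apart in the data below. Cldn11 fell in dKO testes and carried H3K4me3, Fshr carried H3K4me3 and did not pass the test of change, and Gata1 was the member with no H3K4me3 summit near any of its starts. The sequences are RefSeq GRCm38.p6, printed on the strand of the gene, 5′ to 3′, and capitals mark the short motifs counted after them.
Cldn11, chr3:31149670-31149969, plus strand: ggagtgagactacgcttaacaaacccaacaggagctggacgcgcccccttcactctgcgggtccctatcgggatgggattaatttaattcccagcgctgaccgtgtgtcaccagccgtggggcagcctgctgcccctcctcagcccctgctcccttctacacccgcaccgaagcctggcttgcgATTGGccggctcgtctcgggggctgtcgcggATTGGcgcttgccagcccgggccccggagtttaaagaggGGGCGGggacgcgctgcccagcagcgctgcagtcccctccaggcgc
Fshr, chr17:89200626-89200925, minus strand: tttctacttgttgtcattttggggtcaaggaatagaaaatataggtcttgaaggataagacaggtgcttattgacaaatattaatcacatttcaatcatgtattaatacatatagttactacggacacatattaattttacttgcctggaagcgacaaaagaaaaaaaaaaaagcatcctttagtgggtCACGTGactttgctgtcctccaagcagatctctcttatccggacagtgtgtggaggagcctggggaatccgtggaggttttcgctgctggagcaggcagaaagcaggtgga
Gata1, chrX:7967861-7968160, minus strand: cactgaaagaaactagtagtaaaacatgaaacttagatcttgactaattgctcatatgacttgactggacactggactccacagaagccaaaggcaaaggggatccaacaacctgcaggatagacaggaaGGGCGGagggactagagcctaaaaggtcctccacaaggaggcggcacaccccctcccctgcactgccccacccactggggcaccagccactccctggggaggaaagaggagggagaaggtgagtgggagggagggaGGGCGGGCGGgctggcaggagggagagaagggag

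The 3 windows differ in base composition. The Cldn11 window held 66.3% G and C with 24 CpG pairs, the Gata1 window 57.3% with 4 and the Fshr window 40.7% with 6, where the median over 32851 promoters of the same length was 52.7% and 7. Of 8 short motifs searched on both strands, the letters AGATAA (the core that GATA factors bind), AACAAT (SOX factors), AAGGTCA (the nuclear receptor SF-1), TGACG (part of the cyclic AMP response element) and TATAAA were in none of the 5 member promoters. Those motifs were in 11.2%, 10.7%, 4.72%, 20.8% and 13.6% of all promoters. The E-box CACGTG was found in the Fshr promoter alone among the 5, at position -61 counted from the first transcribed base, and in 7.15% of all promoters. CCAAT, read as its reverse complement, was at -66 and -35 in Cldn11 and at -75 in Inha, and in 37.4% of all promoters. The start used for the Inha window is 75507609, which lies inside the gene span given above. Peak distances for Inha below are from the start at 75507077. The GC box GGGCGG was in Cldn11 at 5, in Gata1 at -120, 17 and 21 (the latter pair overlapping) and 4 times in Dhh counting both strands, and in 35.7% of all promoters. These matches are descriptions of the letters and not of binding.

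Library totals lay between 12396345 and 18547103 counts. Prmt1, the deleted gene, was lower in dKO whole testes by 0.49 ± 0.13 (SE) on the log2 scale (edgeR quasi-likelihood test, adjusted p = 0.0334) and in dKO sorted cells by 0.88 ± 0.26 (adjusted p = 0.133). The deposited counts are per gene, so reads from exons that are not floxed are included. The sorted WT libraries stood apart from each other. The biological coefficient of variation was 0.767 in Smart-seq2 against 0.155 in bulk RNA-seq, and it was 0.341 and 0.342 without the first or the second sorted WT library but 1.14 without either dKO library. Levels are given as TPM (RNA level per length within a library), which can be compared between genes. Changes between genotypes come from counts scaled by TMM, because the median tested gene had a TPM ratio of -0.13 (log2, dKO minus WT) in bulk RNA-seq and -0.22 in Smart-seq2 while the fitted changes of the same genes had medians of 0.02 and 0.05.

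In whole testes of WT mice the members spanned about 2 orders of magnitude. Clu was the highest at 2583 ± 117 TPM (SD, n = 3), followed by Inha at 918.1 ± 74.0 and Amh at 658 ± 80.7. Cldn11 (235 ± 8.09 TPM), Gata4 (223 ± 19.5) and Wt1 (200.5 ± 17.2) were the next, and each neighbouring pair of these had overlapping libraries. Dhh (124 ± 13.5 TPM) and Sox9 (89.38 ± 2.6997) were lower, and Fshr (25.7 ± 1.73) and Gata1 (25.3 ± 3.11) were the lowest and overlapped. The other neighbours in this order did not overlap. The 10 genes together held between 4870 and 5267 TPM in WT testes and between 3241 and 3591 TPM in dKO testes, and the groups did not overlap. In dKO testes Clu (2037 ± 133 TPM) and Inha (534 ± 35.4) kept the first places, and Amh (167 ± 40.9) came after Gata4 (179 ± 42.6) and before Wt1 (160.3 ± 45.5), with libraries that overlapped both.

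In dKO testes 5 of the 10 genes fell and none rose (edgeR quasi-likelihood test, Benjamini-Hochberg adjusted p below 0.05 over 16554 genes, of which 8.51% fell). The genes that fell were Amh, Cldn11, Inha, Sox9 and Dhh, and Amh fell by far more than the other members. The median change of the 10 was -0.57 on the log2 scale, against 0.02 over all genes tested. In whole testis RNA, fewer Sertoli cells and less of these RNAs per Sertoli cell cannot be told apart. Amh was the single member that also passed a fold threshold of 2, which 1.78% of all genes passed in the downward direction. On TMM-scaled log2 CPM values every dKO library lay below every WT library for 6 members, these 5 and Gata1, where 19.9% of all genes did so.

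Among the secreted products, Amh had 686, 567 and 721 TPM in the WT libraries and 174, 204 and 123 TPM in the dKO libraries. No dKO library came near a WT library. Its fitted change was -1.80 ± 0.22 on the log2 scale (edgeR, adjusted p = 0.00184, range over 11 alternatives 1.34e-14 to 0.0109), a 3.49-fold lower level, with a 95% interval from -2.30 to -1.30. Inha, which pairs with the beta subunits to form inhibins, had 974, 834 and 946 TPM in WT and 552, 493 and 557 TPM in dKO. The groups were apart, and Inha fell by 0.62 ± 0.11 on the log2 scale (adjusted p = 0.00664). Dhh had 139, 120.5 and 112 TPM in WT and 97.9, 54.3 and 71.3 TPM in dKO, and fell by 0.53 ± 0.10 (adjusted p = 0.00689), with the limit on its counts given above. Without WT replicate 1 Dhh did not pass (adjusted p = 0.0513). Clu had 2504, 2528 and 2718 TPM in WT and 2111, 2116 and 1884 TPM in dKO. Its TPM values did not overlap but its scaled counts did, and its fitted change of -0.18 ± 0.13 did not pass (adjusted p = 0.355), although it did without dKO replicate 2 (-0.30, adjusted p = 0.0311).

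Among the transcription factors, Sox9 had 88.0, 92.5 and 87.6 TPM in WT and 65.3, 40.1 and 54.1 TPM in dKO. It was the member factor that fell, by 0.61 ± 0.12 on the log2 scale (edgeR, adjusted p = 0.0104), and it missed the threshold without WT replicate 2 (adjusted p = 0.0537). Gata1 had 21.7, 27.5 and 26.6 TPM in WT and 16.5, 15.2 and 7.29 TPM in dKO, from counts of 125 to 422, and all dKO values were below all WT values. Its change of -0.81 ± 0.26 missed the threshold (adjusted p = 0.0586), with a 95% interval from -1.40 to -0.22. It passed with DESeq2 (adjusted p = 0.0144), with limma-voom (0.0443), without the filter on low counts (0.00264) and without dKO replicate 2 (0.00182), and its adjusted p was at most 0.149 under all alternatives. Wt1 had 202, 217 and 183 TPM in WT and 202, 112 and 167 TPM in dKO, and Gata4 had 245, 216 and 209 TPM in WT and 196, 131 and 211 TPM in dKO. For both, dKO replicate 2 was the lowest library and another dKO library lay within the WT range. Their changes were -0.15 ± 0.15 (95% interval -0.48 to 0.18, adjusted p = 0.517) and -0.20 ± 0.14 (-0.51 to 0.12, adjusted p = 0.353).

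The receptor gene Fshr had 24.3, 27.7 and 25.1 TPM in WT and 24.4, 17.0 and 22.1 TPM in dKO. The groups overlapped and the change of -0.13 ± 0.11 did not pass (95% interval -0.39 to 0.13, adjusted p = 0.462), so a fall as large as that of Amh lay outside the interval. The junction gene Cldn11 had 226, 240 and 239 TPM in WT and 152, 113 and 146 TPM in dKO. The WT libraries agreed closely, no dKO library reached them, and Cldn11 fell by 0.63 ± 0.10 on the log2 scale (edgeR, adjusted p = 0.00459).

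**Figure D1:**
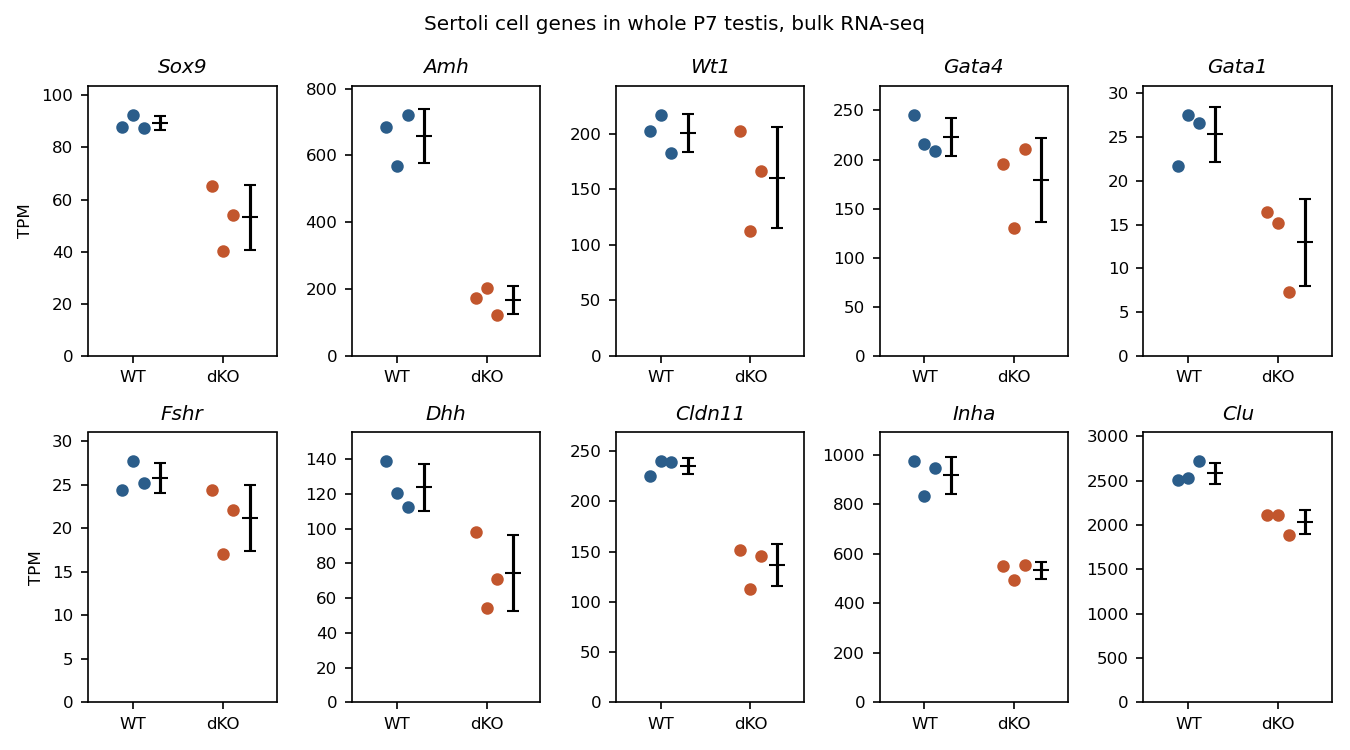
TPM of the 10 Sertoli cell genes in whole P7 testes by bulk RNA-seq, with WT libraries in blue and dKO libraries in orange (n = 3 each) and the mean ± SD in black at the right of each group. Amh lay between 567 and 721 TPM in WT and between 123 and 204 TPM in dKO, while Wt1, Gata4 and Fshr overlapped between the genotypes.

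The fall was not shared evenly, and the make-up of the list changed. Amh made up 13.4%, 11.6% and 13.7% of the members' summed TPM in the WT testes and 4.85%, 6.18% and 3.79% in the dKO testes. Clu made up 49.0%, 51.9% and 51.6% in WT and 58.8%, 64.2% and 58.1% in dKO. Set against the mean log2 TPM of the other 9 members in the same library, Amh moved from 1.88 ± 0.20 (SD, n = 3) to 0.49 ± 0.48, a difference of -1.39 with no overlap. This reached the smallest p that 3 against 3 libraries allow in a two-sided exact permutation test (p = 0.1), so this design cannot carry such a difference past 0.05. Amh was already the member that fell most in these same libraries, so the comparison restates that fall. For the other members the reference mean holds Amh itself, and their places are not compared this way.

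**Figure D2:**
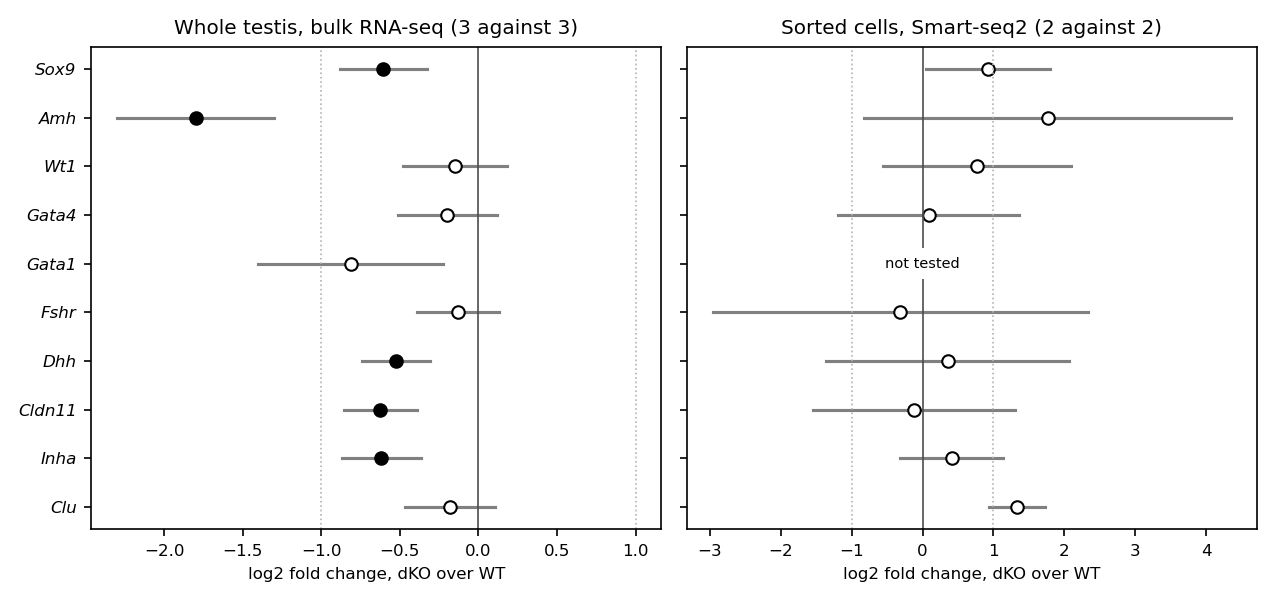
Fitted log2 fold change of each gene in dKO over WT with its 95% interval, in whole testes (left, 3 against 3 libraries) and in sorted GFP-positive cells (right, 2 against 2), where filled points passed an adjusted p of 0.05 and dotted lines mark a 2-fold change. In whole testes 5 genes passed, all lower, with Amh at -1.80, and in sorted cells none of the 9 genes tested passed.

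Other genes of the same pathways were counted from lists of named genes, and their counts are to be read against the 8.51% of all genes that fell and the 10.6% that rose in whole testes. Of 12 regulators and partners of the Sertoli cell factors, 11 were tested in whole testes, Sox8 and Nr0b1 fell and Tcf21 rose. Sox8, a relative of Sox9, went from 86.3 ± 6.69 to 46.3 ± 9.56 TPM (log2 change -0.81 ± 0.12, edgeR adjusted p = 0.003), and Tcf21, a factor of interstitial progenitors, from 175 ± 6.71 to 283 ± 42.2 TPM (0.86 ± 0.10, adjusted p = 0.00181). Of 11 receptors, subunits and binding proteins of AMH, inhibin and activin, 3 fell and none rose. They were Inhba and Inhbb, the beta subunits that pair with INHA, at -1.32 ± 0.29 and -0.54 ± 0.12, and Fstl3, an activin-binding protein, at -1.01 ± 0.11. Of 11 hedgehog pathway genes only Cdon, a co-receptor, fell (-0.76 ± 0.14), and none rose. Ptch1 and Gli1, which hedgehog signalling induces, did not pass the test. Among junction genes, the adhesion genes Nectin2 and Cdh2 fell by 0.68 ± 0.14 and 0.65 ± 0.14 on the log2 scale, and Cldn5, known from endothelial junctions, rose by 0.999 ± 0.220.

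A further 12 Sertoli cell genes summed to between 7007 and 7474 TPM in WT and between 4890 and 5222 TPM in dKO testes, with no overlap. Of these, Hsd17b1, Defb19, Ctsl and Cst9 fell and Krt18, a keratin of immature Sertoli cells, rose from 8.52 ± 1.88 to 36.6 ± 13.0 TPM (log2 change 2.30 ± 0.33, edgeR adjusted p = 0.00302). The median change of these 12 was -0.17, against -0.57 for the members. Of 7 Leydig cell genes 6 were tested and 4 fell (Cyp17a1, Insl3, Cyp11a1 and Star). Lhcgr passed as higher on counts, but its TPM overlapped between the genotypes from 4.91 to 8.98 in WT and from 4.26 to 8.37 in dKO, so no direction is given for it. The list summed to between 624 and 724 TPM in WT and between 164 and 185 TPM in dKO testes. All 6 peritubular myoid genes were tested, 5 fell, and the sums were between 851 and 931 TPM in WT and between 295 and 522 TPM in dKO. Of 13 germ cell genes only Ddx4 fell, and the sums were between 890 and 1034 TPM in WT and between 726 and 951 TPM in dKO. Ret and Dnd1 passed as higher on counts, but the TPM of each overlapped between the genotypes, so no direction is given for them. Ret ran from 17.14 to 19.77 TPM in WT and from 17.65 to 26.52 in dKO, and Dnd1 from 44.0 to 44.89 and from 44.63 to 52.65. Of 9 macrophage genes Mrc1 fell and Cd14 and Lyz2 rose, with sums between 131 and 153 TPM in WT and between 159.9 and 193 TPM in dKO, and of 7 endothelial genes Kdr fell and Pecam1 rose, with sums between 77.4 and 86.6 TPM in WT and between 67.7 and 94.8 TPM in dKO. In whole testes none of these lists had a gene at 0 counts in all libraries of a genotype, and the part of these cell types in the members' changes was not tested.

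The 5 genes outside the list whose scaled counts over the 6 whole-testis libraries were most like the mean of the members (Pearson's r, of 12593 genes searched) were Hspa1b, Psap, Susd2, Bcar1 and Fam3c, with r between 0.996 and 0.999. These libraries form 2 groups, so r here mostly describes the difference between the genotypes. Susd2 fell by 1.09 and Hspa1b, a heat shock protein gene, by 0.93 on the log2 scale.

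The sorted cells ask how much of this signal is left among GFP-positive cells. In sorted WT cells 9 of the 10 genes were lower than in whole WT testes (edgeR quasi-likelihood test on all 10 libraries, adjusted p below 0.05, where 37.7% of 19608 genes were lower), and in sorted dKO cells all 10 were lower than in whole dKO testes, where 28.8% of genes were lower. The median difference of the members was -3.91 on the log2 scale in WT, against -0.46 over all genes, and -2.87 in dKO, against -0.18. The sort and the library protocol changed together in this comparison and cannot be told apart. Ddx4, the gene that drives the GFP, had 80.8 and 117 TPM in sorted WT cells and 85.2, 98.3 and 81.9 TPM in whole WT testes. In dKO it had 81.5 and 93.8 TPM in sorted cells and 59.0, 34.9 and 59.6 TPM in whole testes, where it fell by 0.67 ± 0.16 against WT (adjusted p = 0.0184). Its difference between sorted cells and whole testes did not pass in WT (0.42 ± 0.20, adjusted p = 0.107) but did in dKO (1.21 ± 0.20, adjusted p = 0.0015). The EGFP and Cre are knocked in at the Ddx4 locus, so that allele and germ cell content cannot be told apart in its level. Of 13 germ cell genes, 2 were higher and 2 lower in sorted than in whole WT testes, and 7 were higher and 0 lower in dKO. Over all 19608 genes, 4514 were higher in WT and 4366 in dKO.

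The members did not keep their proportions in the sorted cells. As a share of the mean whole-testis TPM of the same genotype, the sorted WT level had a median of 7.17% over the 10 genes, from 0.321% for Amh to 16.7% for Cldn11. In dKO the median was 10.8%, from 1.89% for Gata1 to 28.7% for Sox9. Amh ranked 3 of the members in whole WT testes and 9 in sorted WT cells, where its libraries overlapped those of Gata1 at rank 8. It had 2.44 and 1.79 TPM there, from 55 and 40 counts, and its sorted level was lower by 8.01 ± 0.37 on the log2 scale (edgeR, adjusted p = 1.99e-06). Cldn11, with 57.2 and 21.2 TPM in sorted WT cells, was lower by 2.32 ± 0.37 (adjusted p = 0.000749).

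Clu and Inha stayed the most abundant members after sorting. Clu had 118 and 110 TPM in sorted WT cells, Inha 46.5 and 59.5, Wt1 20.9 and 15.2, Gata4 7.73 and 15.3, Dhh 9.62 and 11.6, and Sox9 8.97 and 9.54. Inha overlapped Cldn11, Wt1 overlapped Gata4, Gata4 overlapped Dhh, and Gata1 overlapped Amh. Fshr was at 0.42 and 1.10 TPM, from 14 and 36 counts. Gata1 had 1 count in sorted WT replicate 1 and 177 counts in replicate 2, so its sorted WT level rests on replicate 2, and its difference from whole testis did not pass with both (-2.45 ± 1.27, adjusted p = 0.124). It passed when either sorted WT library was left out, at -1.48 without replicate 1 and -8.73 without replicate 2.

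**Figure D3:**
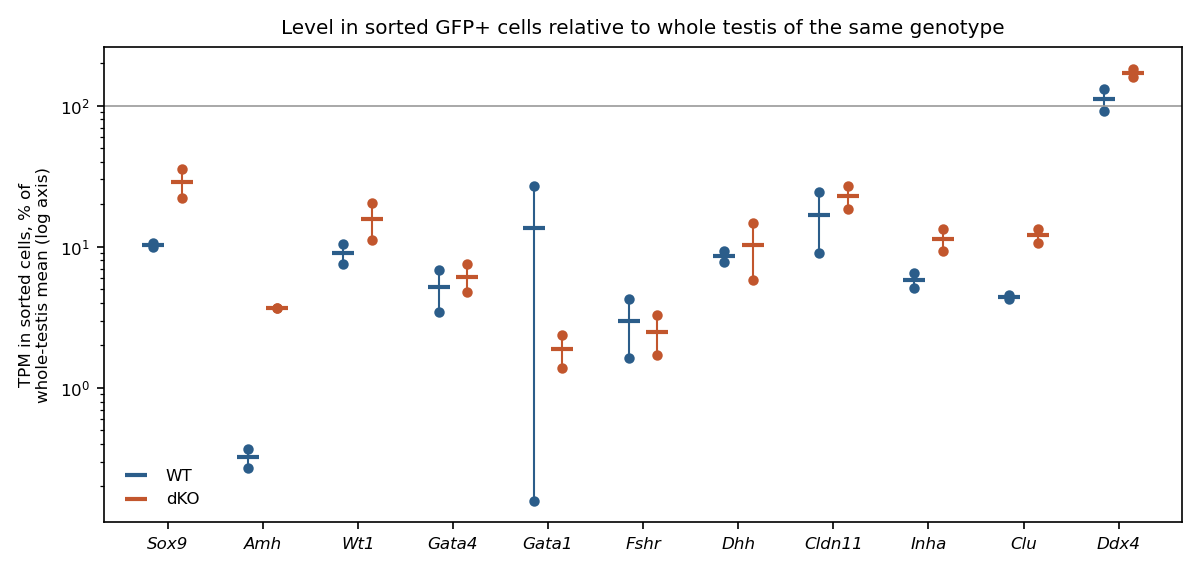
Level of each gene in sorted GFP-positive cells as a percent of the mean whole-testis TPM of the same genotype, on a log axis, with a point for each of the 2 libraries, a bar at their mean, WT in blue and dKO in orange. The means of the Sertoli cell genes were at most 28.7%, Amh was at 0.321% in WT and 3.70% in dKO, and the lower WT point of Gata1 rests on 1 count. Ddx4 is shown as a germ cell gene, and its locus carries the EGFP and Cre knock-in.

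Between genotypes in the sorted cells, 0 of the 9 genes tested passed with edgeR (0% of 16443 genes did), 2 of the 9 and 3911 of all genes had an unadjusted p below 0.05, and of the 9 DESeq2 called 2 (29.5% of all genes) and limma-voom 1 (10.7%). Clu was called by both of these. It had 118 and 110 TPM in sorted WT and 216 and 274 TPM in sorted dKO cells, 1.34 ± 0.15 higher on the log2 scale (95% interval 0.94 to 1.73, edgeR adjusted p = 0.0774). Sox9 had 8.97 and 9.54 TPM in WT and 11.7 and 18.8 TPM in dKO, a difference of 0.93 ± 0.33 (0.05 to 1.80, edgeR adjusted p = 0.188). Amh had 2.44 and 1.79 TPM in WT and 6.19 and 6.17 TPM in dKO, a difference of 1.77 ± 0.98 with an interval from -0.82 to 4.35 (edgeR adjusted p = 0.385). In each of these 3 genes both dKO libraries lay above both WT libraries, and the share of all genes that did so was not counted. Without sorted WT replicate 1, 6 of 10 genes tested passed, as did 51.2% of all genes, and without replicate 2, 6 of 9 passed, as did 43.2% of all genes. Cldn11 passed in both in opposite directions, at 0.78 without replicate 1 and -0.65 without replicate 2, so a call in these fits can follow the WT library that is left. Clu, Sox9 and Amh were higher in dKO with each sorted library left out in turn, by 1.23 to 1.44, 0.62 to 1.19 and 1.58 to 2.02 on the log2 scale. Inha had 46.5 and 59.5 TPM in WT and 50.1 and 71.9 TPM in dKO, and its difference was 0.41 ± 0.27. In sorted dKO cells Wt1 had 18.0 and 32.8 TPM, Gata4 8.52 and 13.5, Fshr 0.36 and 0.70, Dhh 4.34 and 10.97, and Cldn11 25.4 and 36.9. All of these overlapped the WT libraries, with differences from -0.31 for Fshr to 0.77 for Wt1. Gata1 did not pass the filter on low counts, with 8 and 4 counts in dKO.

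The genotype difference itself differed between sorted cells and whole testes for 4 of the 10 genes (edgeR interaction term, adjusted p below 0.05, where 19.0% of 19608 genes differed in either direction), and all 4 were shifted upward in the sorted cells. The shift was 3.66 ± 0.39 for Amh (adjusted p = 0.000467), 1.62 ± 0.25 for Sox9 (0.00271), 1.61 ± 0.18 for Clu (0.00063) and 1.118 ± 0.222 for Inha (0.00854), where the median over all genes was 0.22. The fit shares its estimate of spread between the assays, and with a weight for each group in limma-voom 0 of the 10 passed, with Amh at an adjusted p of 0.347 and Clu at 0.123. Inha also missed the threshold without whole-testis WT replicate 1 (adjusted p = 0.0527) or 3 (0.0518), and without sorted WT replicate 1 the count was 7, where 41.5% of all genes passed. No macrophage gene passed the edgeR genotype test in sorted cells, in which 8 of the list were tested. As 0 of all 16443 genes passed that test, the count says nothing particular to this list. The 9 macrophage genes summed to between 0 and 5.02 TPM in sorted WT cells, with 8 of them, Adgre1, Csf1r and C1qa included, at 0 counts, and to between 59.8 and 69.7 TPM in sorted dKO cells, where Adgre1 alone was at 0. The 12 further Sertoli cell genes summed to between 485 and 677 TPM in sorted WT and between 775 and 1021 TPM in sorted dKO cells, with Gdnf, Krt18 and Hsd17b1 at 0 counts in WT and none in dKO. The 13 germ cell genes also summed higher in sorted dKO cells, at 1411 to 1513 TPM against 1008 to 1169 TPM in WT. Leydig and endothelial sums overlapped between the genotypes there. Myoid sums were lower in dKO, at 3.76 to 4.06 TPM against 4.61 to 8.19 TPM in WT. Endothelial genes at 0 counts in both libraries numbered 6 in sorted WT and 1 in sorted dKO cells. For Leydig genes these counts were 6 and 4, and for myoid genes 3 and 1. The part of other cells in the members' values was not tested.

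Of the 12 regulators, 9 were lower in sorted cells than in whole testes in WT (37.7% of all genes) and 7 in dKO (28.8%). Dmrt1, which germ cells also express, and Rhox5 were not among these in either genotype. Dmrt1 had 203 ± 26.7 TPM (SD, n = 2) in sorted WT cells and 272 ± 11.9 TPM (n = 3) in whole WT testes. Rhox5 was higher in sorted than in whole WT testes, at 10.8 ± 0.566 against 2.49 ± 1.44 TPM.

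Peaks of histone marks were counted at a promoter when at least 2 replicate lists of a group had a summit within 3000 bp of an annotated transcript start, over 21938 protein-coding genes. H3K4me3, a mark of active and poised promoters, was at 9 of the 10 members at P7, where 60.7% of all genes had it, and at 8 at P14, where 63.1% had it. Within 1000 bp of a start the counts were 7 (58.9% of genes) and 5 (60.7%). Inha is among them, although its summits lay nearer to another gene, as given below. Gata1 had no H3K4me3 summit in any of the 4 lists, and Dhh had it in both P7 lists but in 1 of the 2 P14 lists. H3K27ac, a mark of active promoters and enhancers, was at 2 members at P7 (Fshr and Clu, against 30.9% of genes) and at 4 at P14 (Sox9, Wt1, Gata4 and Inha, against 48.9%). Over all 15 groups of lists 49 of 150 pairs of a member and a group were marked, 32.7%, and the mean share over protein-coding genes was 31.7%. With peaks limited to a q of at most 0.01 the count was 19, 12.7% of pairs against a mean of 17.0% of genes. These were the 9 and 8 pairs of H3K4me3 and Wt1 with H3R2me2a and H3R8me2a at P14. These lists are from cell suspensions meant to lack Sertoli cells, and which cells carry a peak cannot be read from them.

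**Figure D4:**
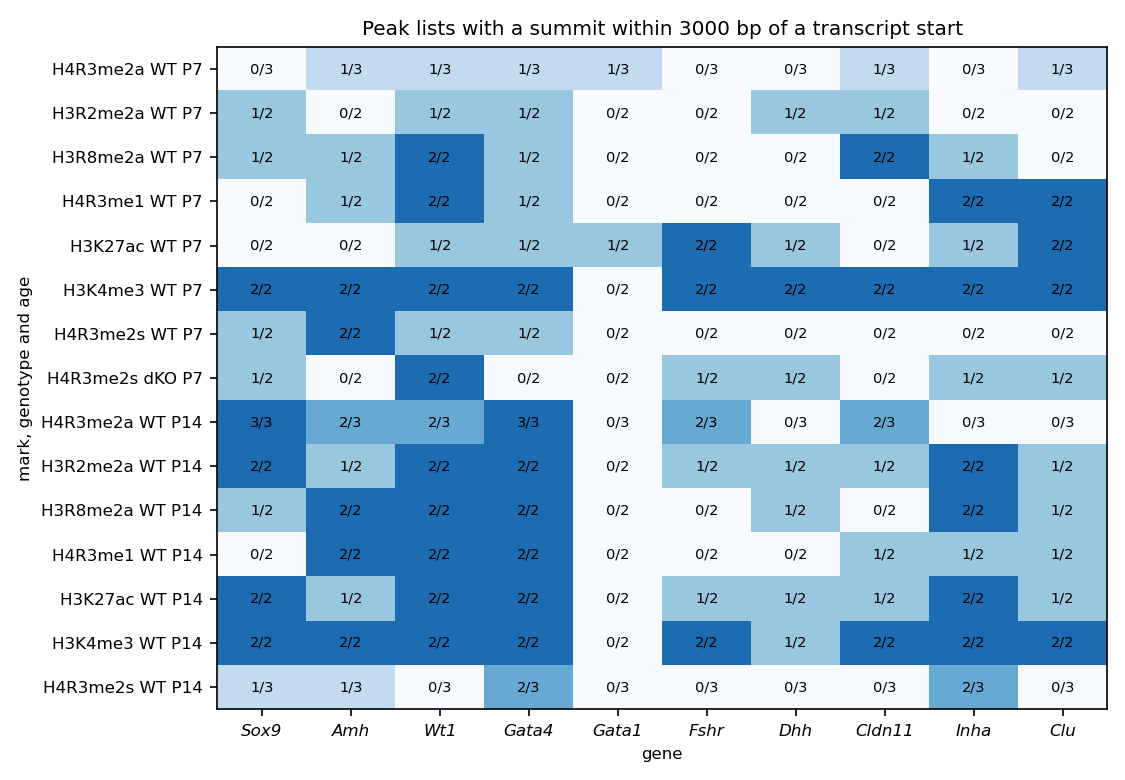
Number of peak lists of each mark, genotype and age that had a summit within 3000 bp of a transcript start of each gene, out of the lists in that group, with darker blue for a larger share. H3K4me3 was in both P7 lists for 9 genes and in neither for Gata1, while Gata4 had at least 2 lists of each of the 7 marks at P14.

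The H3K4me3 peaks of the members were weak among marked promoters. The strongest summit of every marked member was below the median fold enrichment of all protein-coding genes with a summit in the same list, in all 4 lists. That median was 5.74 and 5.85 at P7 and 6.02 and 6.40 at P14. Clu and Fshr came closest in 3 of the lists and Sox9, at 4.75, in P14 list 1. Clu had 5.05 and 5.40 at P7 and 4.14 and 6.01 at P14, and Fshr had 4.89 and 5.80 at P7 and 3.85 and 5.74 at P14. Amh and Inha were the weakest at P7. Amh had 3.03 and 2.62, above 0.705% and 0.0885% of the genes with a summit, and Inha had 3.03 and 2.65, above 0.712% and 0.103%. These peaks were still well supported by the caller, with −log10 q between 4.07 and 26.7 for the strongest P7 summits of the 9 members.

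The place of the summits differed between members. The strongest P7 H3K4me3 summits lay at 165 and 147 bp after the start of Cldn11, at 181 and 269 bp for Clu, at 669 and 618 bp for Sox9 and at 1179 and 853 bp for Fshr. In Amh they lay at 1036 and 1074 bp after the start, inside the gene. In Inha they lay before the start, at -814 and -843 bp, and there the start of Obsl1 on the other strand was nearer, at 98 and 127 bp, so the peak cannot be assigned to Inha. The Obsl1 start was also nearer to the strongest Inha summit of H3K27ac in P14 list 1, at 5 bp. The same was so for H4R3me2s in P14 lists 2 and 3, at 148 and 134 bp. None of the summits of H3K4me3 or H3K27ac fell inside the printed 300-base windows of Cldn11, Fshr or Gata1, although the H3K4me3 peaks of Cldn11 reached into its window in all 4 lists and the H3K27ac peak of Fshr reached into its window in P7 list 2. Gata1 has 3 annotated starts, at 7978071, 7967910 and 7964166 on chromosome X, and the printed window belongs to the second. The only H3K27ac summit near any of them was 148 bp after the start at 7978071 in P7 list 1, with a fold enrichment of 2.80.

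**Figure D5:**
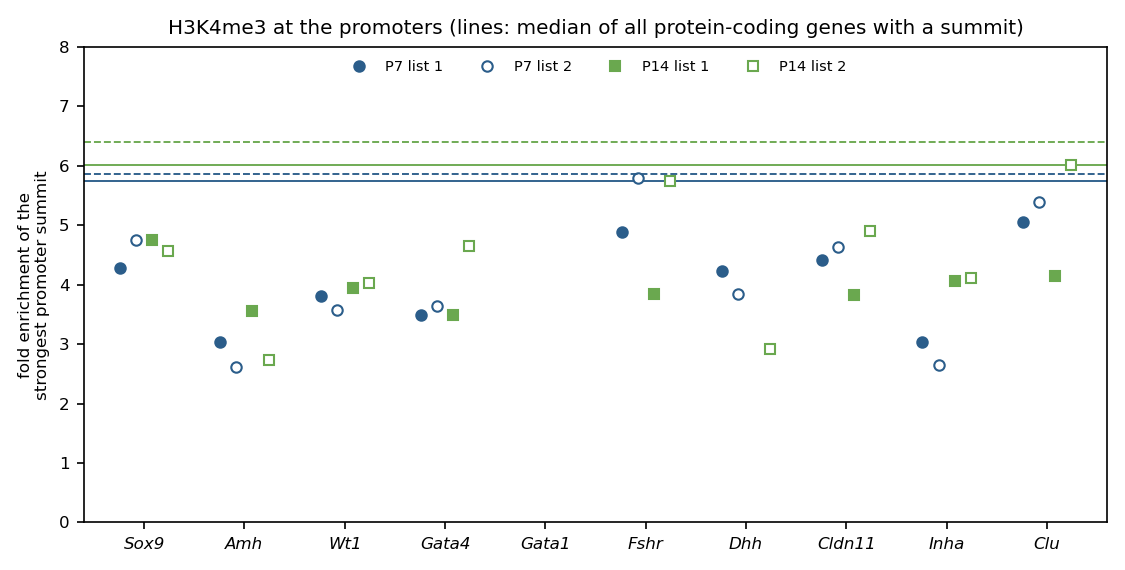
Fold enrichment of the strongest H3K4me3 summit within 3000 bp of a transcript start of each gene, for 2 lists at P7 (circles) and 2 at P14 (squares), with list 1 filled and list 2 open and a line at the median of all protein-coding genes with a summit in that list (solid for list 1, dashed for list 2). Each point lay below the line of its own list, and Gata1 has no point.

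The arginine methylation marks were sparse at P7. H4R3me2a and H3R2me2a, the asymmetric dimethyl marks at those residues, were at 0 of the 10 members, where 15.3% and 10.9% of all genes had them. With 1 list enough the counts were 6 (40.0% of genes) and 5 (37.5%). H3R8me2a was at Wt1 and Cldn11 (9.67% of genes), and H4R3me1 at Wt1, Inha and Clu (10.8%). At P14 H4R3me2a was at 6 members (Sox9, Amh, Wt1, Gata4, Fshr and Cldn11, against 49.0% of genes), and H3R2me2a and H3R8me2a at 4 each (51.3% of genes, and 7230 of 21938). Gata4 was marked by all 7 marks at P14, and Wt1 by all but H4R3me2s. Gata4 has 5 annotated starts, and the lists of a mark often had their summits at different ones. Within 1000 bp of a start Gata4 kept 4 of the 7 marks, and at a q of at most 0.01 H3K4me3 alone. Peak lists were longer at P14 than at P7 for each WT mark except H4R3me2s, so ages were not tested against each other. H4R3me2s, the symmetric mark that shares its residue with H4R3me2a, was at 1 member in WT at P7, where 17.7% of genes had it, and at 1 in dKO, where 9.77% had it. In WT this was Amh, with fold enrichments of 5.15 and 3.45, and neither dKO list had a summit within 3000 bp of its start. The 2 WT summits lay apart, at -503 and 973 bp, with −log10 q of 5.22 and 0.757. At a q of at most 0.01 Amh had a summit in 1 of the 2 WT lists. In dKO the mark was at Wt1 in both lists, at 3.08 and 3.75, and in 1 of the 2 WT lists. These dKO peaks had −log10 q of 0.0844 and 0.514. With 2 lists of unequal length in each group this difference was not tested. Peak names inside the dKO lists carry the tag SKO, and the study also has a Stra8-Cre line abbreviated sKO, so which knockout line they come from rests on the labels alone. Peak names inside the H4R3me2s lists labelled P14 carry the tag SD17, so the age behind the values of Gata4 and Inha for that mark is uncertain.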

How the data were processed

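The members and the gene lists were chosen with earlier results of these data known. The authors cleaned the RNA reads with fastp 0.23.2, aligned them to the mm10 genome using STAR, and obtained gene values from RSEM (version and annotation not given in the sources used here). The expected counts the authors deposited are not normalized, and the TPM values they deposited are scaled within each library. The FPKM values that the authors deposited beside them were not used. Symbols came from GENCODE vM21 by gene ID without version, which matched 55141 of 55401 rows. Expected counts were rounded, filtered with filterByExpr (minimum 10, total 15), and after TMM scaling entered edgeR 4.0.16 (glmQLFTest, R 4.3.3), within each assay and, for sorted against whole testis and the interaction, over all 10 libraries. Standard errors are the log2 fold change divided by the root of the F statistic. Adjusted p-values are Benjamini-Hochberg over all genes tested, with a threshold of 0.05. Alternatives were DESeq2 1.42.0, limma 3.58.1, other scaling and filters, a replicate block, limma on log2(TPM + 1) and each library left out. On simulated counts with 100 genes changed 2-fold and 100 changed 4-fold, the whole-testis test recovered 73 and 90, the Smart-seq2 test 0 and 16, and the fit of all libraries 5 and 37. Same-numbered libraries are not stated to share an animal, and their deviations did not pair them.

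Peaks were called by the authors with MACS2 2.1.0 for each sample. The deposited lists give the fold enrichment ratio and the −log10 p and −log10 q of each peak, and depth behind them is unknown. Named genes are the 10 members, Prmt1, Ddx4, at most 4 genes per list that passed in whole testes and the 5 most alike genes. Some results of the junction list are not reported here. Ptch1, Gli1, Dmrt1 and Rhox5 were named after their values were seen, as were Adgre1, Csf1r, C1qa, Gdnf, Cst9 and Lhcgr.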

Additional observations from a re-analysis of the deposited data

Results flagged for a closer look

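The genotype difference of 4 genes was not the same in sorted cells and in whole testes by the edgeR interaction test (dKO minus WT in sorted cells minus that in whole testes, log2). The value was 3.66 for Amh, 1.62 for Sox9, 1.61 for Clu and 1.118 for Inha. Amh had 658 ± 80.7 TPM in whole WT testes (SD, n = 3) and 167 ± 40.9 TPM in whole dKO testes, while it had 2.12 ± 0.460 TPM (n = 2) in sorted WT cells and 6.18 ± 0.0141 TPM in sorted dKO cells. Both dKO sorted libraries were above both WT ones for Amh, Sox9 and Clu, and the share of all genes that did so was not counted. On scaled counts all 3 dKO whole-testis libraries were below all 3 WT ones for Amh, Sox9 and Inha, as for 19.9% of all genes. Those of Clu overlapped, and its whole-testis change did not pass (edgeR, adjusted p = 0.355). Under limma-voom with a weight for each group none of the 4 passed.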

How the results depend on the processing

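Of the 10 members, 5 were lower in whole testes, 9 in sorted WT and 10 in sorted dKO cells. With a 2-fold change asked beside the adjusted p the whole-testis count was 1, and with the replicate number as a block it was 5 in whole testes and 0 in Smart-seq2. Leaving out a library gave 4 to 7 in whole testes (7 without dKO replicate 2), 0 to 6 in Smart-seq2 (6 without either WT library, where the lone library is assumed to vary like the other group) and 3 to 7 for the difference between assays (7 without sorted WT replicate 1). In Smart-seq2 DESeq2 called 2 and limma-voom 1, and limma-voom with group weights gave 0 for the difference between assays. The 49 marked pairs (32.7%, against a mean of 31.7% of genes) became 19 at a q of at most 0.01 (12.7% against 17.0%), 31 within 1000 bp (20.7% against 27.4%), 98 with 1 list enough (65.3% against 52.1%) and 24 of 150 with lists shortened to the shortest (against 23.0%), so the members' share lay on either side of that of all genes. Direction turned for Cldn11 in Smart-seq2 (0.028 with limma-voom and 0.0324 with the replicate block) and for Fshr in the difference between assays (0.0186 with group weights and 0.0996 on log2 TPM). Over libraries left out, values ran from -0.29 to 0.000915 for Wt1 in whole testes, from -0.23 to 0.50 for Gata4, -0.83 to 0.54 for Fshr, -0.0888 to 1.04 for Dhh and -0.65 to 0.78 for Cldn11 in Smart-seq2, and from -3.62 to 3.64 for Gata1 and -0.61 to 0.75 for Fshr in the difference between assays. The cause was not tested. Low counts of Gata1, Fshr and Amh limit the sorted comparison.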
